A study of Mus musculus with 6 samples.

Results

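The Clca family comprises 7 protein-coding mouse genes, Clca1, Clca2, Clca3a1, Clca3a2, Clca3b, Clca4a and Clca4b, taken by symbol from the 21374 genes of the deposited table. All 7 were measured and passed the filter on low values. The family was chosen by its normalised levels in these same libraries, which were already known, so its levels are a description. Calls of members in the fits over all genes are likewise given as a description and not as a test of the family. Male C57BL/6 mice, labelled wild type or Otud1-/-, received the colon carcinogen azoxymethane on day 0 at 6 weeks of age. Dextran sulfate sodium, a detergent-like agent that causes colitis, followed at 1.5% in 3 cycles, each with 4 days of the agent and 14 days of water. Tissue was collected at 18 weeks, on day 81. Both genotypes had this treatment, and no untreated colon was analysed here. RNA sequencing was done on distal colon next to tumours, after tumours had been cut away, with 3 libraries per label. Neither the deleted part of Otud1 nor the cells in which it was deleted is given in the sources used here, nor is it stated if every library came from its own animal.

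CLCA proteins were first taken for calcium-activated chloride channels and are now known as self-cleaving metalloproteases, secreted or held at the cell surface. Secreted CLCA1 is a main protein of intestinal mucus, and in human cells it raises the surface level of the chloride channel TMEM16A, encoded by Ano1. In the mouse, Clca1 marks goblet cells, the mucus-secreting cells of the epithelium, while Clca4a protein lies on the apical membrane of enterocytes. Mouse Clca2 belongs to stratified squamous epithelium, Clca3b was first described from smooth muscle, and Clca3a1 is known from lymphatic endothelium. Older names cross over between these genes: in RefSeq, Clca1 was also called Clca3 and gob-5, Clca3a1 was called Clca1, and Clca3b was called Clca4.

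All 7 genes lie on the minus strand of chromosome 3 in GRCm38, between 144729677 and 145099443, and no other annotated protein-coding gene lies in that span of 370 kb. From low to high coordinate the order is Clca3a1 (144729677 to 144760977), Clca3a2 (144796559 to 144819494), Clca3b (144822623 to 144849357), Clca4b (144910921 to 144932529), Clca4a (144952480 to 144975045), Clca1 (145003817 to 145032776) and Clca2 (145070263 to 145099443). A transcribed pseudogene, Clca4c-ps, lies between Clca3b and Clca4b. The RefSeq promoter window of Clca4b (chr3:144932500-144932779, GRCm38.p6) is shown because this gene had the largest difference between the labels. It is printed 5′ to 3′ on the minus strand, from 250 bases before to 30 bases after the transcript start. Capitals mark matches to the CDX2 letters TTTATG and to the TATA box letters TATAAA on either strand.
Clca4b: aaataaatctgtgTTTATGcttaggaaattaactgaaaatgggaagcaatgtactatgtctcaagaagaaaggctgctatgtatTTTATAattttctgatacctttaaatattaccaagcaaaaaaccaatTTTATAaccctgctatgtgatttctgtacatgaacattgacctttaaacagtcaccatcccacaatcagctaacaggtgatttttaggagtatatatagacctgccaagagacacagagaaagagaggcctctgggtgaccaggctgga

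The TATAAA letters occurred at 2 places in this window, 166 and 119 bases before the start, and TTTATG at 1 place, 237 bases before it. Both TATAAA matches lie on the strand opposite to the one printed, where they read TTTATA. Other TATA-like letters, such as tatatata nearer the start, were not searched for. Over 32851 RefSeq windows that run to 50 bases after the start, both strands searched, TTTATG occurred in 11.9% and TATAAA in 13.6%. Each match is a description of letters.

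Values per library are given in the order of replicates 1, 2 and 3. Otud1, the deleted deubiquitinase gene, goes against the labels and was more abundant in the libraries labelled Otud1-/-. Its normalised read counts, which are reads per gene over a scaling factor for each library, were 111, 45.1 and 48.9 in the wild type libraries and 141, 150 and 208 in the Otud1-/- libraries. The log2 change was 1.37 ± 0.35 (SE, limma, Benjamini-Hochberg adjusted p = 0.0934). Otud1 was called higher in Otud1-/- by DESeq2 (adjusted p = 0.0148), scaled to the pan-epithelial genes (limma, adjusted p = 0.00923) and with wild type 1 and Otud1-/- 1 left out together (1.89, limma, adjusted p = 0.00496), and in none of the other 15 settings. All directions are therefore those between libraries as labelled, Otud1-/- minus wild type. Libraries held 15300937 to 19406407 reads in genes. Wild type 1 and Otud1-/- 1 stood apart, at -86.5 and 83.3 on the first principal component, against -25.8 to 28.2 for the other 4. Epithelial markers were present in every library: the 10 pan-epithelial genes, such as Epcam and Vil1, summed to 351109 to 409667 normalised reads in wild type against 231582 to 337641 in Otud1-/-.

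Together the 7 genes took a smaller part of the Otud1-/- libraries. The summed normalised reads were 153245, 144181 and 137160 in the wild type libraries and 34280, 54441 and 45835 in the Otud1-/- libraries. The highest Otud1-/- library thus stood far below the lowest wild type library. The means were 144862 ± 8064 (SD, n = 3) and 44852 ± 10116, a log2 difference of -1.72, and the share of all normalised reads was 0.768% ± 0.054 against 0.273% ± 0.048 (SD, n = 3). In bulk tissue, fewer cells of a type and less RNA per cell cannot be told apart.

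**Figure D1:**
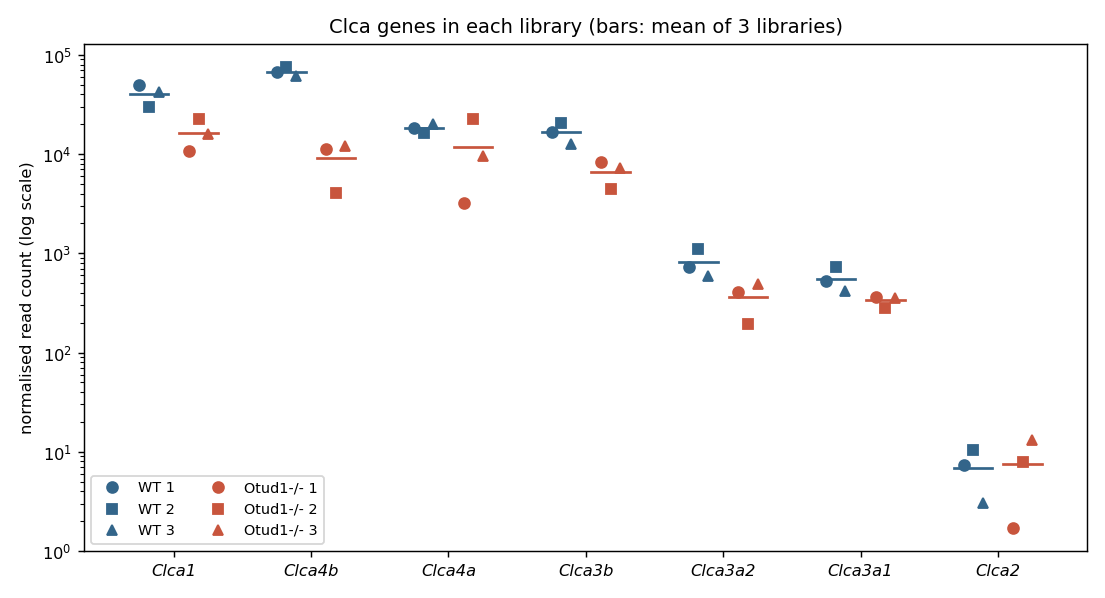
Normalised read count of each Clca gene (log axis) in the 6 libraries, with wild type in blue and Otud1-/- in red; each point is 1 library and each bar the mean of 3. The labels are apart for 5 genes and overlap for Clca4a and Clca2.

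Each of the 7 log2 changes was negative, with a median of -1.20 beside 0.02 over all 21281 tested genes. In 5 of the 7 genes every Otud1-/- library lay below every wild type library, a pattern found in 13.3% of all tested genes. At an adjusted p under 0.05 in the limma fit over all genes, 1 of the 7 was called (Clca4b), where 0.949% of all genes were called. Leaving out wild type 1, 2 or 3 gave 0 members called, beside 0.166%, 0.0519% and 0.0474% of all genes. Without Otud1-/- 1, 2 or 3 the members called were 0, 3 and 1, beside 1.58%, 1.61% and 0.541% of all genes. On the recovered reads, DESeq2 called 5 members and 6.61% of all genes, and edgeR called 1 member and 0.37% of all genes. No member (0) was called scaled to total reads (1.95% of all genes called), after quantile normalisation (0.719%), with a pseudocount of 0.1 (0.554%), with limma without trend and robust (0%) or without wild type 1 and Otud1-/- 1 together (1.9%). The same count of 0 was found with the replicate number as a block (0.0846% of all genes called). Scaled to the pan-epithelial list, 1 member was called, beside 1728 of 21281 genes. That member was Clca1, and Clca4b was not called there. These counts describe genes chosen with the same contrast known and support nothing further.

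Among wild type libraries the levels per kilobase of exon spread widely. Clca4b was highest at 22704 ± 2385 normalised reads per kilobase (SD, n = 3), then Clca1 at 10753 ± 2615, Clca4a at 6061 ± 679 and Clca3b at 4947 ± 1175. Clca3a2 (203 ± 67.3 per kilobase) and Clca3a1 (143 ± 39.4 per kilobase) were far lower, and Clca2 was lowest at 1.49 ± 0.789 per kilobase. Of neighbours in this order, Clca4a with Clca3b and Clca3a2 with Clca3a1 overlapped between libraries, and the rest were apart. Among Otud1-/- libraries the order was lost at the top. There Clca1 stood at 4369 ± 1599 normalised reads per kilobase, Clca4a at 3942 ± 3300, Clca4b at 3058 ± 1475 and Clca3b at 1974 ± 586, and each of these overlapped the next.

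Clca1, the secreted mucus protease of goblet cells, had normalised read counts of 49731, 30121 and 41992 in the wild type libraries and 10717, 22764 and 16024 in the Otud1-/- libraries. The labels did not overlap, and the lowest level was in Otud1-/- 1. The means were 40615 ± 9877 (SD, n = 3) and 16502 ± 6038, and the log2 change was -1.34 ± 0.30 (SE). It was -0.83 after quantile normalisation and -0.90 without wild type 1 and Otud1-/- 1. Relative to the mucin gene Muc2, the Clca1 ratio was 0.725, 0.365 and 0.568 in the wild type libraries and 0.300, 0.737 and 0.324 in the Otud1-/- libraries. This ratio overlapped between the labels, with its highest value in Otud1-/- 2.

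Clca4b, a close relative of the enterocyte gene Clca4a, had the largest difference in the family. Normalised reads for it were 67365, 75505 and 61258 in the wild type libraries and 11311, 4081 and 12104 in the Otud1-/- libraries. Wild type libraries lay close together, and Otud1-/- 2 was the lowest of all. The means were 68043 ± 7147 (SD, n = 3) and 9166 ± 4421, a ratio of 7.42, and the log2 change was -3.04 ± 0.43 (SE). It ranged from -3.32 to -2.53 over the fits that leave out 1 library.

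Clca4a, the enterocyte surface member, had normalised read counts of 18153, 16194 and 20274 in the wild type libraries. In the Otud1-/- libraries it had 3186, 22656 and 9683. Otud1-/- 2 was the highest of all 6 libraries and Otud1-/- 1 the lowest, so the labels overlapped. The log2 change of -1.03 ± 0.73 (SE) was -0.29 without Otud1-/- 1 and -1.71 without Otud1-/- 2. The adjacent genes Clca4a and Clca4b did not keep one ratio across libraries. Clca4b exceeded Clca4a by ratios of 3.71, 4.66 and 3.02 in the wild type libraries and 3.55 in Otud1-/- 1. The ratio was 0.180 in Otud1-/- 2 and 1.25 in Otud1-/- 3.

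The 3 genes of the Clca3 group were all lower in the Otud1-/- libraries. Clca3b, the most abundant of the 3, had normalised read counts of 16735, 20521 and 12622 in the wild type libraries and 8286, 4455 and 7167 in the Otud1-/- libraries. Its labels did not overlap, and Otud1-/- 2 was lowest (log2 change -1.34 ± 0.26 SE). Clca3a2, which in the mouse is known from the mammary gland, had 726, 1108 and 592 normalised reads against 410, 196 and 487. Its highest and lowest libraries were again wild type 2 and Otud1-/- 2. Its log2 change of -1.20 ± 0.40 (SE) was -0.80 without Otud1-/- 2 and -0.78 when libraries were scaled to the pan-epithelial genes. Clca3a1 had 527, 722 and 419 normalised reads against 367, 280 and 356, with the same 2 libraries at the ends. The log2 change of Clca3a1 was -0.71 ± 0.21 (SE), and -0.29 when scaled to the pan-epithelial genes.

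Clca2, the gene of squamous epithelium, was close to absent. It had 7, 11 and 3 reads in the wild type libraries and 2, 7 and 13 in the Otud1-/- libraries. The labels overlapped, and its log2 change of -0.06 ± 0.71 (SE) turned positive in 8 of 17 other settings, so no direction can be given at this depth. Of the 9 genes of the stratified squamous list, mostly keratins, 7 were tested and 0 were called (limma, 1 at an unadjusted p under 0.05, 0 by edgeR and 1 by DESeq2). Their summed normalised reads were 132 to 605 in wild type against 342 to 1784 in Otud1-/-, and Trp63 and Ivl were not tested. Over all 21281 tested genes, 4143 had an unadjusted p under 0.05 (limma), and DESeq2 called 6.61% of all genes.

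**Figure D2:**
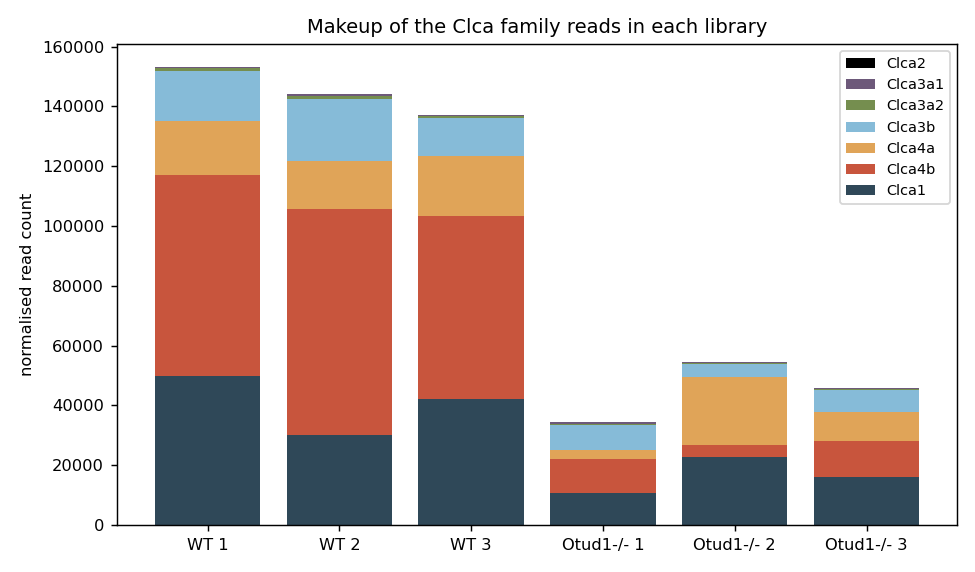
Normalised read counts of the 7 Clca genes stacked by library. Clca4b is the widest band in each wild type library, and Clca4a and Clca1 are the widest bands in Otud1-/- 2.

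Clca4b took a smaller share of the family reads in each Otud1-/- library than in any wild type library. It made up 47.0% ± 4.67 of them in wild type and 22.3% ± 13.2 in Otud1-/- (SD, n = 3). Clca1 made up 28.0% ± 6.21 and 36.0% ± 5.35, and Clca3b 11.5% ± 2.56 and 16.0% ± 8.0. The share of Clca4a was 12.6% ± 1.90 in wild type and 24.0% ± 16.4 in Otud1-/-, where it ran up to 41.6% in Otud1-/- 2. Clca2, Clca3a1 and Clca3a2 together stayed a small band in each library.

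Some members share transcript sequence, so reads could be split between them by a counting step that the sources used here do not describe. Of the 50-base words in the GENCODE transcripts of Clca4a, 41.0% also occurred in another annotated gene, 20.9% in Clca4b and 23.6% in Clca4c-ps. The shares in any other gene were 24.8% for Clca4b, 26.9% for Clca3a2, 26.8% for Clca3a1 and 6.68% for Clca3b. Clca3a2 shared 21.8% with Clca3a1 and 3.85% with Clca3b. With 100-base words they were 21.9% for Clca4a, 6.49% for Clca4b, 9.80% for Clca3a2, 9.47% for Clca3a1 and 0.608% for Clca3b. Clca1 and Clca2 shared none at either length. The pseudogene Clca4c-ps, named after its values were seen, had 166, 362 and 568 normalised reads in the wild type libraries and 43.5, 22.5 and 101 in the Otud1-/- libraries, with no overlap. Reads of Clca4b, Clca4a and Clca4c-ps that fall in shared stretches cannot be told apart in these data.

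**Figure D3:**
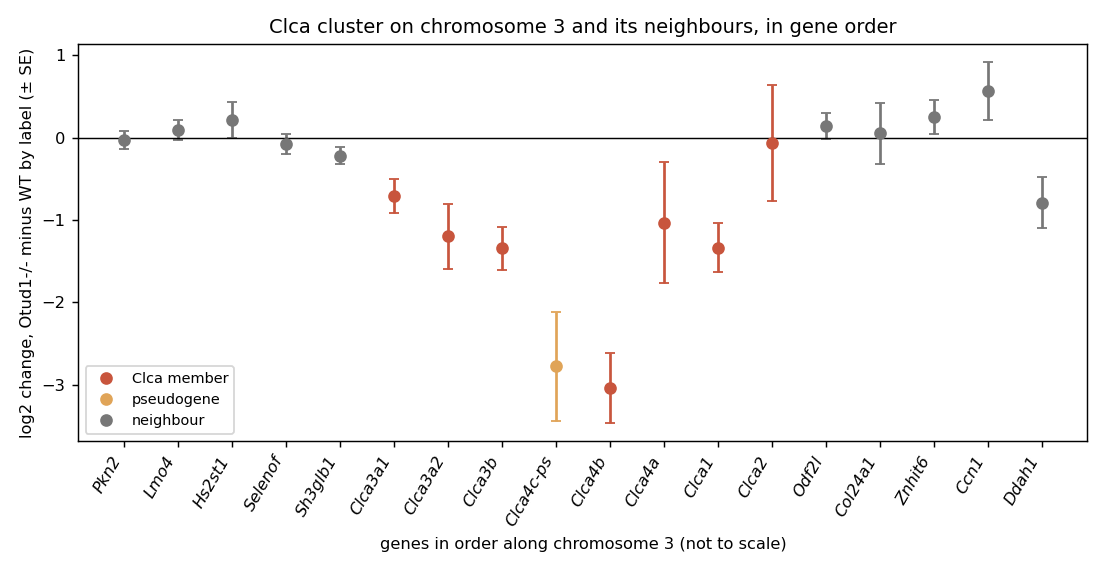
Log2 change (Otud1-/- minus wild type by label) with its limma standard error for the Clca genes, the pseudogene Clca4c-ps and 5 measured genes on each side, in gene order and not to scale. The lowest point is Clca4b at -3.04, and the flanking genes lie between -0.79 and 0.56.

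The genes around the cluster were tested, since the choice of the family did not use them. None of the 10 nearest measured protein-coding genes, 5 on each side, was called in the limma fit (adjusted p from 0.233 to 0.957, 1 at an unadjusted p under 0.05), by edgeR or by DESeq2. Over the whole table, 4143 of 21281 tested genes had an unadjusted p under 0.05 (limma). Sh3glb1, the next gene beyond Clca3a1, had a log2 change of -0.22 ± 0.10 (SE), and Odf2l, the next beyond Clca2, 0.14 ± 0.16. Ddah1, the fifth gene beyond Clca2, had the most negative value of the 10 at -0.79 ± 0.31. The labels did not overlap in 2 of the 10 genes, Sh3glb1 and Ddah1, both lower, against 13.3% of all genes. Whether the Clca genes differ from these flanking genes was not tested.

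The family members followed more than 1 pattern across libraries. Likeness was measured as the root-mean-square difference of log2 values centred per gene over the 6 libraries, where 0 means the same pattern. Clca3a2 and Clca3b were closest (0.22), followed by Clca3a1 with Clca3b (0.36) and Clca3a1 with Clca3a2 (0.38). Clca1 was closest to Clca4a (0.55). Clca4a and Clca4b, adjacent and similar in sequence, were 1.62 apart, second only to Clca2 with Clca4b (1.80) among the 21 pairs. The ratio of Clca3b to Clca3a2 stayed between 14.7 and 23.1 in all 6 libraries. Shared reads may enter these likenesses, and their part was not tested.

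**Figure D4:**
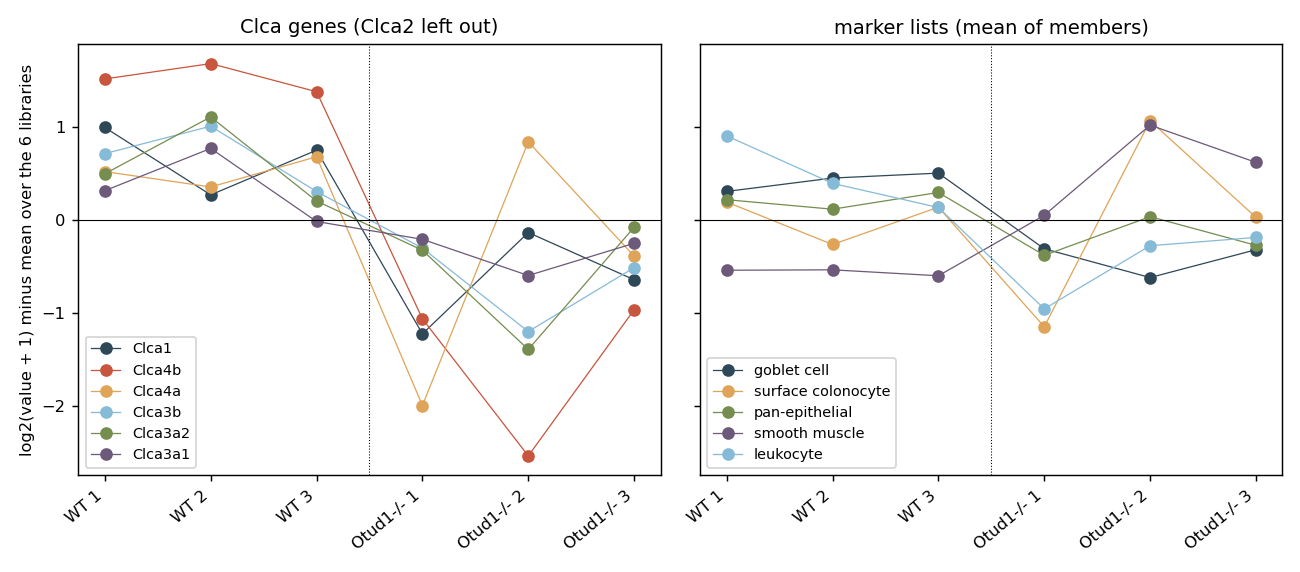
Log2(value + 1) minus the mean over the 6 libraries, for 6 Clca genes (left) and for the mean of 5 marker lists (right). Lines only join the points of a gene or list. In Otud1-/- 2, Clca4a and the surface colonocyte list are high while Clca4b, Clca3b and Clca3a2 are at their lowest.

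By the same measure, 12291 tested genes with a mean of at least 50 normalised reads were compared with each member. Genes with predicted, clone-based or pseudogene symbols were passed over and are not among them. Nearest to Clca1 were Mep1b, which encodes the brush-border metalloprotease meprin beta (0.17), the immunoglobulin segment Igkv6-23 (0.17) and the chemokine gene Ccl5 (0.19). For Clca4a they were Slc13a2os (0.18), its partner Slc13a2, which encodes a dicarboxylate transporter (0.25), and Ighv1-19 (0.25). The nearest gene to Clca4b was the carboxylesterase gene Ces2f (0.32), ahead of Rasgef1a (0.36) and Ly6i (0.44). Clca3b stood nearest to Ighv8-12 (0.13), Igkv8-27 (0.18) and the NF-kB subunit gene Rel (0.19). Clca3a2 was nearest to Socs3, a feedback inhibitor of cytokine signalling (0.20), then Clca3b (0.22) and Grin1os (0.23). Clca3a1 was nearest to Tmem184c (0.13), Ces2g (0.13) and Acod1 (0.14). With 6 libraries and so many genes these are the nearest of many, given as a description.

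Of the goblet cell genes other than Clca1, 4 were called lower and none higher (limma). The list held 17 tested genes, 16 with negative changes, with a median log2 change of -0.72 beside 0.02 over all genes, and 0.667% of all genes were called lower. The mucus protein gene Fcgbp went from 62044 ± 2307 to 16099 ± 1437 normalised reads (SD, n = 3; log2 change -1.95 ± 0.13 SE, limma, adjusted p = 0.000891). The others were Fer1l6 (-1.74, limma, adjusted p = 0.00284), Sytl2 (-0.72, limma, adjusted p = 0.0349) and Bcas1 (-0.94, limma, adjusted p = 0.0453). Sytl2 was no longer called when wild type 1, 2 or 3 or Otud1-/- 3 was left out (limma, adjusted p = 0.0957, 0.133, 0.163 and 0.0818), and Bcas1 without wild type 1, 2 or 3 or Otud1-/- 2 or 3 (0.144, 0.117, 0.182, 0.0629 and 0.0951). The summed level of the list was 214747 to 242706 in wild type against 84440 to 110697 in Otud1-/-. It was lower in the libraries of the label where Clca1 was lower. Within the Otud1-/- libraries the order was not shared: the sum was lowest in Otud1-/- 2 (84440), where Clca1 was highest, and 107214 in Otud1-/- 1, where Clca1 was lowest. The part of goblet cells in the Clca1 values was not tested.

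Surface colonocyte genes, which mark absorptive cells such as those known to carry Clca4a, were not called. Of 14 tested genes 0 passed (limma, 2 at an unadjusted p under 0.05, 0 by edgeR and 2 by DESeq2), with a median log2 change of -0.48. Beside this, 4143 of all 21281 tested genes had an unadjusted p under 0.05 (limma), and DESeq2 called 6.61% of all genes. The mean log2 level of the list was 11.4, 10.9 and 11.3 in the wild type libraries and 10.1, 12.3 and 11.2 in the Otud1-/- libraries. By this mean Otud1-/- 1 was lowest and Otud1-/- 2 highest, as for Clca4a. By the summed level Otud1-/- 2, at 331941 normalised reads, lay below every wild type library (337682 to 429768), so the match with Clca4a depends on the summary. The smallest p was that of Lypd8, a secreted glycoprotein gene (-0.87 ± 0.20 SE, limma, adjusted p = 0.0751). Cyp2c55 had a log2 change of 3.72, Car4 -1.73 and Guca2a 1.29, none of them called. The part of these cells in the Clca4a values was not tested.

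Smooth muscle markers were higher in the Otud1-/- libraries. All 10 genes had positive log2 changes (median 1.15) and an unadjusted p under 0.05 (limma). Of these, 3 were called higher, where 0.282% of all genes were called higher. Myh11 (1.30), Myl9 (1.24) and Synm (1.32), named after their values were seen, were those that passed, with log2 changes in parentheses. No gene of the list (0) was called without wild type 1, 2 or 3, without Otud1-/- 3 or by edgeR. Without Otud1-/- 1, 9 were called, beside 1.58% of all genes. DESeq2 also called 9, beside 6.61% of all genes. Scaled to total reads 9 were called, beside 1.95% of all genes, and 8 after quantile normalisation, beside 0.719%. Scaled to the pan-epithelial genes 10 were called, beside 1728 of 21281 genes. The summed level was 36076 to 39596 in wild type against 59406 to 122774 in Otud1-/-. Among the Otud1-/- libraries this sum was highest in Otud1-/- 2, which also had the highest Clca total, and lowest in Otud1-/- 1, which had the lowest. Clca1 and Clca4a had that order too, while Clca4b, Clca3b, Clca3a2 and Clca3a1 were lowest in Otud1-/- 2. Pan-epithelial genes had a median log2 change of -0.53 with 0 of 10 called (limma, 8 at an unadjusted p under 0.05, 0 by edgeR and 3 by DESeq2). For the counts of these lists, 4143 of all 21281 tested genes had an unadjusted p under 0.05 (limma). DESeq2 called 6.61% of all genes and edgeR 0.37%. Leukocyte markers summed to 11412 to 21220 in wild type against 6839 to 9453 in Otud1-/-. Of the 8 genes 0 were called (limma, 4 at an unadjusted p under 0.05, 0 by edgeR and 4 by DESeq2). All 8 log2 changes were negative, with a median of -0.90. For lymphatic and blood endothelium, the setting in which Clca3a1 is known, 0 of 10 genes were called (limma, 1 at an unadjusted p under 0.05, 0 by edgeR and by DESeq2). Fibroblast genes had 0 of 9 called (limma, 2 at an unadjusted p under 0.05, 0 by edgeR and 1 by DESeq2). In the crypt stem cell list 0 of 6 were called (limma, 2 at an unadjusted p under 0.05, 0 by edgeR and 3 by DESeq2). All 6 log2 changes were positive, with a median of 1.95. The sums of this list were 830 to 2983 in wild type against 4395 to 14070 in Otud1-/-. Median log2 changes of the endothelial and fibroblast lists were 0.14 and 0.10, beside 0.02 over all genes. The part of tissue makeup in the Clca values was not tested.

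Ano1, which encodes the chloride channel that human CLCA1 acts on, did not pass the test. Normalised reads for it were 2913, 2876 and 3270 in the wild type libraries and 2902, 3957 and 2662 in the Otud1-/- libraries, with overlapping labels (log2 change 0.05 ± 0.16 SE, limma, adjusted p = 0.888). Among 14 genes of chloride channels and their transport partners 0 were called (limma, 3 at an unadjusted p under 0.05, 0 by edgeR and 2 by DESeq2), and the median log2 change was 0.05. The smallest p was that of Ano7, an Ano1 relative, at -0.83 ± 0.21 SE (limma, adjusted p = 0.0926). Kcnq1, a potassium channel gene, had 0.76 (limma, adjusted p = 0.14), Ano9 had -0.39 (limma, adjusted p = 0.216), and the chloride and bicarbonate exchanger gene Slc26a3 had -1.01 (limma, adjusted p = 0.43). Over all 21281 tested genes, 4143 had an unadjusted p under 0.05 (limma), and DESeq2 called 6.61% of all genes.

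Interleukin-13, acting through IL-4 receptor alpha, IL-13 receptor alpha 1 and STAT6, is a known inducer of CLCA1 in airway goblet cells. Both receptor genes were called lower in the Otud1-/- libraries, 2 of the 9 tested genes of this list. Over all genes, 0.667% were called lower. None of the list was called higher, although 4 of the 9 changes were positive. Il13ra1 went from 2940 ± 235 to 1715 ± 188 normalised reads (SD, n = 3; log2 change -0.78 ± 0.12 SE, limma, adjusted p = 0.0318) and Il4ra from 3160 ± 334 to 2040 ± 66.8 (-0.63 ± 0.12 SE, limma, adjusted p = 0.0467). The alarmin gene Il33 had a log2 change of 1.36 (limma, adjusted p = 0.243) and Gata3 -0.51 (limma, adjusted p = 0.435), neither called by limma. DESeq2 called 3 genes of the list, where it called 6.61% of all genes. These were both receptor genes, lower, and Il33, higher (DESeq2, adjusted p = 0.0381 for Il33). Il5, Il13 and Il25 were not found by symbol in the deposited table, so they were not tested. Il13ra1 was no longer called when any 1 of wild type 1, 2 or 3 was left out (limma, adjusted p = 0.113, 0.132 and 0.132), and Il4ra without wild type 1, 2 or 3 or Otud1-/- 3 (0.169, 0.152, 0.12 and 0.103). Neither was called by edgeR (0.0528 and 0.0652). Scaled to the pan-epithelial genes, whose own median log2 change was -0.53, Il13ra1 had -0.37 (limma, adjusted p = 0.201) and Il4ra -0.21 (limma, adjusted p = 0.409).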

How the data were processed

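Deposited values came from 6 libraries of tumour-adjacent distal colon, grouped by title. Per the submitters' processing notes the build was mm10; the sources used here name no aligner, counter or strand setting. The deposited signal is a normalised read count: from the values, the authors divided reads per gene by 1 size factor per library, and 100% of values were whole reads within 0.001 of a read. Symbols, positions and exon lengths came from GENCODE vM21 (21317 of 21374 IDs matched). Genes at 1 or more in at least 3 libraries (21281) were tested with limma 3.58.1 (R 4.3.3; trend and robust) on log2(value + 1), label as the only term, two-sided, with Benjamini-Hochberg adjustment over all tested genes and calls at an adjusted p under 0.05. This scale understates changes of genes with few reads. P-values measure the spread between libraries, which may be partly technical; every pair of libraries differed beyond sampling noise of the counts (lowest chi-square over its degrees of freedom 17.7). Count tests on recovered reads (edgeR 4.0.16, DESeq2 1.42.0) were alternatives; the value of 1 read in Otud1-/- 3 is so close to 1 that the recovery rests there on the decimals of its values. The limma fit was tested on 1 set of simulated data, in which the share of false calls was above the adjusted p threshold. Some promoter sequences are not reported here. Named genes were the 7 members, Otud1, Ano1, flanking genes, the 3 most alike genes of each member with a mean of at least 50, and up to 4 genes of smallest p per list. Members and lists were chosen with earlier results of these data known.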

Additional observations from a re-analysis of the deposited data

How the results depend on the processing

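Of the members, 6 had negative log2 changes in all 18 other settings tried, and Clca2 in 9 of 17. Changing the filter, the limma options or the replicate block left each member's estimate as it was. For members whose labels did not overlap, leaving out libraries could not reverse the sign. These signs are therefore largely fixed by the values and are a description. Scaling to total reads moved the median of all genes to 0.22 on the log2 scale and scaling to the pan-epithelial list to 0.42. Relative to that median, Clca4b stood at -3.05 and -3.04. Such a scaling shifts the log2 changes of well-read genes by nearly the same amount, so these 2 values could hardly have differed. The family log2 difference was -1.28 after quantile normalisation and -1.30 scaled to the pan-epithelial list, and -1.87 to -1.53 without single libraries. The 202 calls over all genes became 122 with a filter at a mean of 5, 118 with a pseudocount of 0.1, 416 scaled to total reads, 1728 scaled to the pan-epithelial list, 62 with edgeR, 1412 with DESeq2, 394 without wild type 1 and Otud1-/- 1 (chosen after the data were seen), and 10 to 340 without single libraries. Limma without trend and robust called 0 (3499 at an unadjusted p under 0.05). Of the 202, 70.3% were lower, against 24.8% scaled to total reads, 6.42% scaled to the pan-epithelial list, 60.1% after quantile normalisation and 52.6% with DESeq2. Members called numbered 5 with DESeq2, 0 with a pseudocount of 0.1, scaled to total reads, after quantile normalisation, without trend and robust and without wild type 1 and Otud1-/- 1, and 0 to 3 without single libraries. Scaled to the pan-epithelial list the count was 1, with Clca1 called in place of Clca4b. The 4 goblet cell calls became 2 under each of the 3 other scalings and with edgeR, 0 without trend and robust, 7 with DESeq2 and 2 to 6 without single libraries. The 2 type 2 cytokine axis calls became 1 with a filter at a mean of 5, with a pseudocount of 0.1 and without wild type 1 and Otud1-/- 1. They became 0 under each other scaling, without trend and robust and with edgeR, and 0 to 2 without single libraries. Chloride channel genes had 1 call scaled to the pan-epithelial list and 2 with DESeq2, and surface colonocyte genes 2 with DESeq2. Neither list had a call (0) without single libraries. The 3 smooth muscle calls became 0 with a filter at a mean of 5, with a pseudocount of 0.1, without trend and robust and with the replicate block, and 9 without wild type 1 and Otud1-/- 1. The cause of these differences was not tested.

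Labels share replicate numbers, but deviations of same-numbered libraries correlated at -0.26, -0.10 and -0.09, which gave no sign that the numbers pair the samples. With 3 libraries per label these values cannot settle whether they do. With the number as a replicate block, 18 genes were called over all genes, 0 members, 2 goblet cell genes and 0 of the type 2 cytokine axis. Depth limits Clca2, with at most 13 reads in a library.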

Other observations

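In Otud1-/- 2, the library where Clca4a was highest and Clca4b lowest, 9 of the 14 surface colonocyte genes had their highest level and 5 did not. Among those 5, Car4 had 14379 normalised reads there against 17591 to 26986 in wild type, and Lypd8 168729 against 240559 to 315995. Cyp2c55, a cytochrome P450 gene, had 30.6, 32.9 and 28.6 normalised reads in the wild type libraries, replicates 1, 2 and 3, and 80.2, 2112 and 423 in the Otud1-/- libraries. Guca2a, which encodes guanylin, had 4210, 2537 and 4594 against 3959, 21870 and 8302. Emp1 had 16902, 10660 and 10653 against 4594, 36386 and 12696. The genes named here were picked out after their values had been seen and are given as values only.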
